A study of Mus musculus with 9 samples.

Results

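Compact regions at gene ends are the short regions of NR4A2 immunoprecipitation signal that lie at the edges of genes. They are under 2000 bp long and within 1 kb of either end of the span of a protein-coding gene. Of the 16884 regions in the authors' table, 7968 (47.2%) met both conditions, which use length and position and no measured signal. The remaining compact regions lay more than 1 kb from any gene end, 5663 of them inside a gene and 2998 outside, and 255 regions were 2000 bp or longer. NR4A2 was immunoprecipitated from heart ventricle of 3 Nr4a2-icTg mice and 3 Cre control littermates, 1 chromatin immunoprecipitation and sequencing (ChIP-seq) library per mouse. Nr4a2-icTg mice, here called NR4A2 mice, carry a conditional Nr4a2 knock-in at the ROSA26 locus and the Myh6-cre/Esr1* transgene, whose promoter directs a tamoxifen-dependent Cre recombinase to cardiomyocytes. Control mice (αMHC-MerCreMer) carry the same inducible Cre without the knock-in, and they also received tamoxifen. Every mouse got 1 intraperitoneal injection of tamoxifen at 40 mg/kg when 8 to 9 weeks old, and hearts were taken on day 3. The other 3 samples of the series, an antibody test with its input and a pooled input, were not analysed here, so signal was not set against input.

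NR4A2 (NURR1) is an orphan nuclear receptor of the NR4A family, which also holds NR4A1 and NR4A3. It binds as a monomer to an 8-base site called the NBRE, AAAGGTCA, which extends the AGGTCA half-site that many nuclear receptors share. Gene starts of the CpG-rich kind are open in most tissues and carry binding sites for general promoter factors such as the ETS family, NRF1, Sp1 (the GC box), YY1 and NF-Y. A protein can therefore give ChIP-seq signal at a gene start with or without its own site there. The study asked where NR4A2 binds in the heart once it is induced in cardiomyocytes.

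Promoter sequences show the kinds of DNA under part of these regions. They come from RefSeq (GRCm38.p6), run from 250 bases before a listed transcription start to 30 bases after its first base, and are written 5′ to 3′ on the gene's strand. Capitals mark matches, on either strand, to the NBRE (AAAGGTCA), the extended half-site of estrogen-related receptors (TCAAGGTCA), the AGGTCA half-site, the ETS core (CCGGAAG), the NRF1 core (GCGCANGCG) and the CRE (TGACGTCA). The NBRE contains the half-site, so each NBRE match is also a half-site match. Tex38, Tmem9 and Smco1 were the first 3 of the 10 largest rises, among members with a mean signal of at least the median of all regions, whose region contains a listed start and at least 150 bases of that start's window of 300 bases. Mmd, Ltn1 and Setd2 were the first 3 of the 10 largest falls on the same terms, and Ctnnb1 is shown because its region had the most control signal per kilobase. The windows are chr4:115781005-115781284 (minus strand) for Tex38, chr1:136007969-136008248 (plus) for Tmem9, chr16:32271230-32271509 (plus) for Smco1, chr11:90249226-90249505 (plus) for Mmd, chr16:87432577-87432856 (minus) for Ltn1, chr9:110532347-110532626 (plus) for Setd2 and chr9:120933328-120933607 (plus) for Ctnnb1.
Tex38: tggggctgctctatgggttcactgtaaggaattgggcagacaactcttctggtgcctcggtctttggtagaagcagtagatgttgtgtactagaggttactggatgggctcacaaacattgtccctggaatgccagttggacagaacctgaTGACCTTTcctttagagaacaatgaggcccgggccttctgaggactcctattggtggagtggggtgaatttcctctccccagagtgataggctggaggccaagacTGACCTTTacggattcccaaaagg
Tmem9: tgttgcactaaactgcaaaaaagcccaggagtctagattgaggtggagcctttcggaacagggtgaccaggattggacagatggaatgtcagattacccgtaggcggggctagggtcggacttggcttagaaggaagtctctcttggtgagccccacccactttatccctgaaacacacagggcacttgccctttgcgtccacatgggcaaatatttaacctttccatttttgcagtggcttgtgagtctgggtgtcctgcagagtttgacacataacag
Smco1: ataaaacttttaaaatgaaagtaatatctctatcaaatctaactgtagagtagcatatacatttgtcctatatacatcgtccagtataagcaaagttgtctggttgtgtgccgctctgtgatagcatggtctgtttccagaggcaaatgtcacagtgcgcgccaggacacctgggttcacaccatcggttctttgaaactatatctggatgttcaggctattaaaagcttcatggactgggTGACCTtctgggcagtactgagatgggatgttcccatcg
Mmd: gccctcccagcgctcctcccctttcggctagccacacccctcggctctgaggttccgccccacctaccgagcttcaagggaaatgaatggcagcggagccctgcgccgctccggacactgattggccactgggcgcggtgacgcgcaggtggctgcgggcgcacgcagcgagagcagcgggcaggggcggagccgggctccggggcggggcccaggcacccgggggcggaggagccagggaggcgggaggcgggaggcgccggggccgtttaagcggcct
Ltn1: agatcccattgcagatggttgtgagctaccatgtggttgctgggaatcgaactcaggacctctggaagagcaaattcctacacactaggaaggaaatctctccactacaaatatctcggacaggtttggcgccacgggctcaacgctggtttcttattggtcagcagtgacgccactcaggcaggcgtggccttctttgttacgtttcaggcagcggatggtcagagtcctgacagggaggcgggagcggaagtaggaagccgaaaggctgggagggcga
Setd2: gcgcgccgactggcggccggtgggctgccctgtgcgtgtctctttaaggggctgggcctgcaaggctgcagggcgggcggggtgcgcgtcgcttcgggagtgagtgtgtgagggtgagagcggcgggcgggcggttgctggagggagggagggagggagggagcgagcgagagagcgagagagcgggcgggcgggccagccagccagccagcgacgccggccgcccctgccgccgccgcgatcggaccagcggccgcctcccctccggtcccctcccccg
Ctnnb1: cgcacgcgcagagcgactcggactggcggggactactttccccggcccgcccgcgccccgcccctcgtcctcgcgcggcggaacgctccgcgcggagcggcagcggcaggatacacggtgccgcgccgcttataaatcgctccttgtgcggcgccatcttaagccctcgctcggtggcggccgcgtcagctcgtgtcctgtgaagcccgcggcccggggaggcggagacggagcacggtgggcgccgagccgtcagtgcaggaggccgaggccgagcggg
The Tex38 window held a pair of NBRE matches, both read as TGACCTTT on the gene's strand, beginning 99 bases before and 6 bases after the listed start. Tex38 had the only NBRE among the 32 promoter windows under members that rose, beside 51 of 5309 windows under all members. The Smco1 window held 1 half-site match, 9 bases before its start. None of these 6 motifs was found in the other windows. The sequences also differ in composition: the Tex38 window had 3 CpG dinucleotides and 51.7% G+C over its 300 bases, Smco1 8 and 44.3%, Setd2 38 and 77.3%, and Ctnnb1 51 and 75%.

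These regions took a smaller share of the reads in regions in the NR4A2 hearts than in the controls. Members held 54.8%, 55.3% and 58.8% of the reads in regions in control mice 1, 2 and 3, and 51.7%, 48.9% and 50.03% in NR4A2 mice 1, 2 and 3. The groups did not overlap, and 95% Wilson intervals were at most 0.13 percentage points to either side, covering counting error only. The control library with the highest share, control mouse 3, was also the shallowest, with 549700 reads in regions against 637635 to 1035856 in the other 5. The median member gave 56.4, 56.5 and 59.7 CPM (reads adjusted for sequencing depth) in the controls and 52.5, 50.4 and 51.7 CPM in the NR4A2 hearts. Per kilobase, the median went from 114 CPM in controls to 101 CPM in NR4A2 hearts. The CPM of all regions summed to 989059 to 1009112 per library. They are thus close to, but not exactly, shares of a library's own reads in regions, and what set these sums was not tested. On such a relative scale a loss at gene ends and a gain elsewhere cannot be told apart. In whole ventricle, a change in the mix of cells and a change in binding per cell cannot be told apart either.

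**Figure D1:**
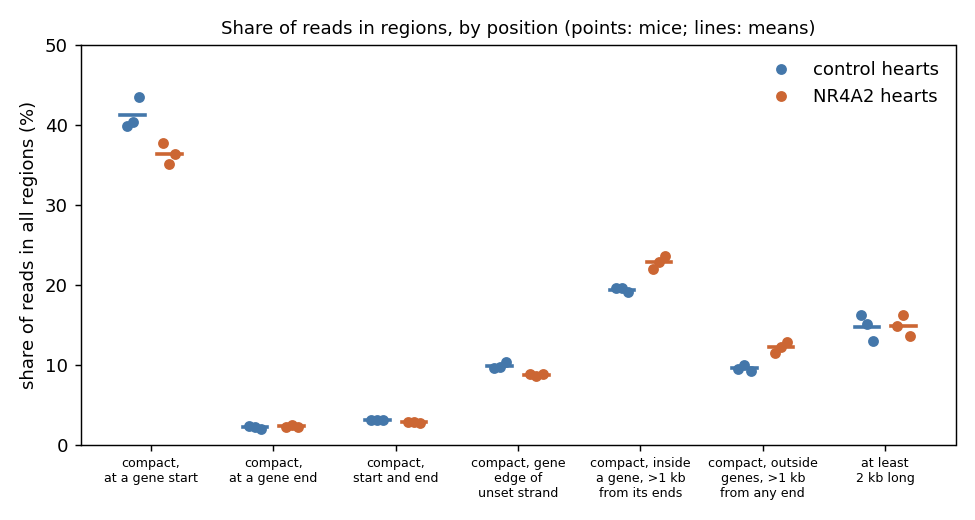
Share of each mouse's reads in regions (%, vertical axis) by position of the region. Points are single mice and lines are means of 3; compact regions at gene starts hold 39.9% to 43.5% of reads in controls and 35.1% to 37.7% in NR4A2 hearts, while compact regions more than 1 kb from gene ends hold a larger share in every NR4A2 heart than in any control.

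Few members changed, and more of them fell than rose. By limma, which compares the 3 NR4A2 with the 3 control values of log2(CPM + 1) in each region, 162 members (2.03%) rose and 306 (3.84%) fell at a Benjamini-Hochberg adjusted p under 0.05 over all 16884 regions. Among all regions 14.7% rose and 3.17% fell, so the members' share of rises was below the background and their share of falls slightly above it. In 365 members all 3 NR4A2 mice lay above all 3 controls and in 1246 all lay below, against 19.9% and 11.7% of all regions. Members separated in this way made up 4.58% in the upward and 15.6% in the downward direction. The median log2 fold change of members was -0.18 (interquartile range -0.38 to 0.03), compared with -0.06 over all regions and 0.24 over the regions that are not members. The balance of calls varied with scaling: 34.6% of changed members were rises here and 45.3% with DESeq2 on the recovered reads (117 up, 141 down). It was 15.8% after centring each library on its median (122 up, 652 down) and 95.7% with recovered reads left unscaled (45 up, 2 down). The unscaled share rests on few calls, and members did not move upward there: their median was -0.20, against -0.18 here. Centring shifted the median of all regions by -0.11, and the member median was lower than that of all regions under each of these scalings. Of the 31 rises and 35 falls picked by the naming rule given under data processing, 12 rises (the 10 largest, Sdhd and Ncoa6) and none of the falls passed the test with unscaled reads. Further regions that are named below to complete list counts are not among these. If the authors had reduced each library's reads to its fly spike-in before counting, the unscaled comparison would be the one scaled to the spike-in, and whether they did is not known here. Without NR4A2 mouse 3, 85 members rose and 157 fell, and without control mouse 3, 147 rose and 157 fell. The authors' deposited table calls 153 members up and 161 down, of which limma called 144 and 149 in the same direction. The 6 libraries are from separate mice, and p-values measure the spread between these mice.

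**Figure D2:**
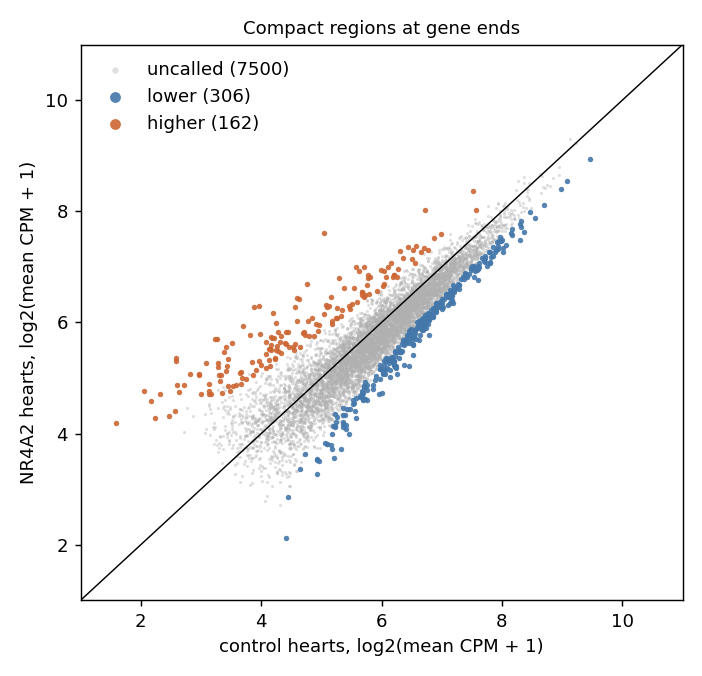
Mean signal of each of the 7968 members in control hearts (horizontal axis) and NR4A2 hearts (vertical axis), both as log2(mean CPM + 1), with the line of equality. Members that rose (162) spread over low and middle control signal, and members that fell (306) lie mostly where control signal is high.

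Members that rose started from weak signal, and members that fell from strong signal. The median riser went from 21.0 CPM in controls to 54.7 CPM in NR4A2 hearts, and the median faller from 98.3 to 59.0 CPM. Over all members the medians were 58.0 CPM in controls and 51.4 CPM in NR4A2 hearts. Calls were made on the difference between these same values, so the starting levels follow in part from the selection. All regions were put in 4 signal classes of equal size by their mean over the 6 mice, which includes the NR4A2 values. In the weakest class (8.81 to 21.5 CPM), 3.65% of members rose and 1.04% fell, compared with 27.2% and 0.67% of compact regions away from gene ends. In the strongest class (68.7 CPM or more), 1.51% of members rose and 6.31% fell, against 7.71% and 9.23% of compact regions elsewhere. Rises were thus rarer among members than among other compact regions of like signal in each of the 4 classes, and the middle classes had 3.23% against 34.4% and 1.42% against 22.3%. Of the 7968 members, 5590 had a mean CPM at or above the median over all regions, and 82 of the rises and 262 of the falls were among them. The limits of the rule made no sharp step: of 136 members 900 to 1000 bp from a gene end 11 rose and 3 fell, and of 111 compact regions over 1000 and up to 1100 bp away 10 rose and 4 fell. Of 42 members in the last 200 bp under the length limit 4 rose and 5 fell, and of 31 regions at gene ends in the 200 bp above it 6 rose and 3 fell.

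Gene starts and the far ends of genes, where the annotated gene span stops, differed in how often the signal rose. The strand of a gene, needed to tell its start from its end, was taken from RefSeq promoter entries for 17492 of 21900 protein-coding genes. On that basis 5600 members lay at starts only, 520 at far ends only, 397 at both a start and a far end, and 1451 at genes whose strand was not used here. At starts 61 members (1.09%) rose and 216 (3.86%) fell, with a median log2 fold change of -0.19. At far ends 59 (11.3%) rose and 12 (2.31%) fell, with a median of 0.00. Over all regions 14.7% rose and 3.17% fell. Of compact regions inside a gene and over 1 kb from its ends, 23.5% rose and 2.40% fell. The share of rises at far ends was thus below both, and that at starts far below. The far-end regions were weaker, with a median of 26.5 CPM in controls and 28.5 CPM in NR4A2 hearts against 61.5 and 54.0 CPM at starts. Within signal classes the difference was still there: from the weakest to the strongest class, 1.32%, 1.75%, 0.73% and 1.03% of start members rose, and 8.25%, 14.1%, 14.7% and 10.4% of far-end members. The share that rose was larger at far ends than at starts under each of the 14 other settings tried, from 3.65% against 0.29% with unscaled reads to 11.7% against 1.16% with a pseudocount of 5. Another listed start lay within 1 kb of 21 of the 520 far-end members, of which 1, Tex38, rose. The 766 members at the starts of 2 or more genes rose in 4 cases and fell in 22.

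**Figure D3:**
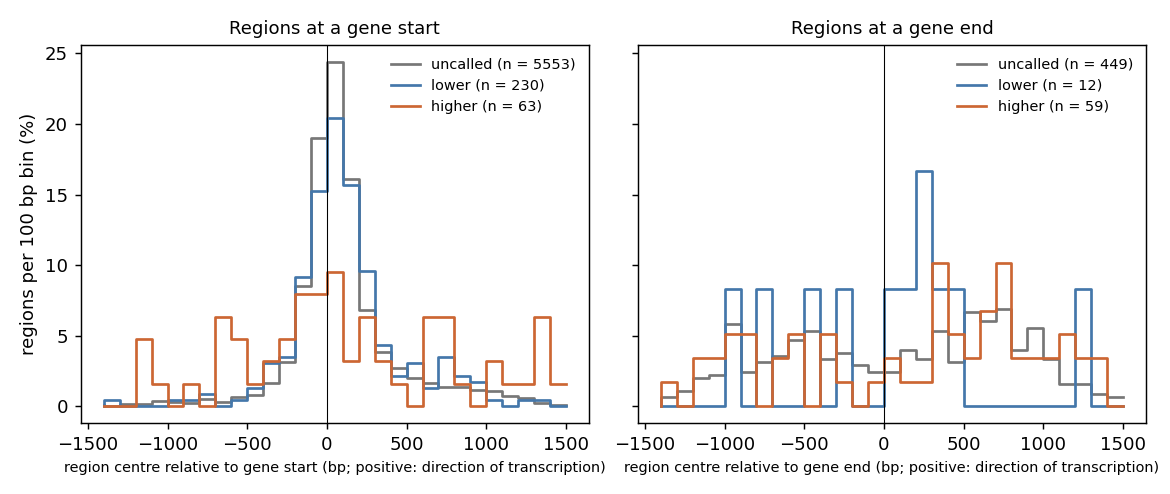
Distance from a gene start (left) or far end (right) to the centre of each member (horizontal axis, bp, positive in the direction of transcription), as the share of members of each call in bins of 100 bp. At starts, members that fell or did not pass the test crowd within 250 bp of the start, while members that rose are spread on both sides.

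At starts, the regions that rose sat beside the start more often than on it. Among members at starts only, a gene edge lay inside the region for 41.0% of the 61 that rose. The share was 80.6% for those that fell and 75.5% for those that did not pass the test. This edge is the start or, in some cases, that of a nearby gene of unset strand. The start here is the outer edge of the gene span, and other listed starts were not used. Distances were taken over all members whose nearest gene edge is a start, 63 risers, 230 fallers and 5553 others. The median distance from the region's centre to the start was 536.5 bp for risers, 156 bp for fallers and 120.0 bp for the rest. Of the risers, 34.9% had their centre within 250 bp of the start, against 67.8% of the fallers. A further property that the rule did not use is whether the same gene also has a rising region deep inside it, more than 1 kb from its ends. Of 6310 genes with a start member, 416 had such a region. Their 461 start members rose in 15 cases (3.25%) and fell in 11, and the other 5536 start members rose in 53 cases (0.957%) and fell in 222.

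The 10 members with the largest rises, among those with at least median signal, went from 13.8 to 38.3 CPM in controls to 62.9 to 195 CPM in NR4A2 hearts, and in each of them all NR4A2 mice lay above all controls. Tex38, which encodes a protein needed in sperm formation, led them. Its region at chr4:115779854-115781411 gave 30.7, 27.3 and 38.01 CPM in the control mice and 195, 216 and 174 CPM in the NR4A2 mice. That is a log2 fold change of 2.58 ± 0.23 (SE; limma adjusted p = 2.8e-15), and the lowest NR4A2 heart was far above the highest control. The region begins 23 bp from the far end of the Tex38 span, inside the gene, and also contains the listed start whose promoter is printed above. Pxylp1, an enzyme of proteoglycan synthesis, had a region 592 bp from its far end (chr9:96823928-96824668) with 15.4, 7.79 and 18.1 CPM in controls and 63.0, 63.1 and 105 CPM in NR4A2 hearts, a log2 fold change of 2.43 ± 0.36 (SE). A region 319 bp from the far end of Arl10, a member of the ARF-like GTPase family, and also near Nop16 (chr13:54583084-54583803) rose by 2.37 ± 0.35 (SE) on the log2 scale, from 15.4, 19.5 and 9.05 CPM to 57.3, 82.0 and 94.6 CPM. Map4k2, a protein kinase, rose near its far end by 1.81 ± 0.30 (chr19:6354303-6355083). Control and NR4A2 values of these regions lay well apart.

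Rises on the start itself were seen at Tmem9 and Smco1. Tmem9, a lysosomal membrane protein, gave 10.2, 14.6 and 27.2 CPM in controls and 71.6, 72.5 and 68.1 CPM in NR4A2 hearts at chr1:136007771-136008342, a log2 fold change of 2.07 ± 0.34 (SE; limma adjusted p = 1.94e-06). Smco1, a membrane protein with a coiled coil, gave 15.4, 14.6 and 39.8 CPM and then 77.3, 85.1 and 94.6 CPM at chr16:32271246-32271774 (1.98 ± 0.31). The 3 NR4A2 hearts were alike at both starts, while control mouse 3 stood above the other controls. The other large rises were at D630045J12Rik and Atp6v0a4 (1.94 ± 0.28, chr6:38122667-38123587), near the start of LOC115488671 and Gspt1 (1.76 ± 0.35, chr16:11252959-11253479), 688 bp from the start of 4921536K21Rik (1.71 ± 0.31, chr11:3895996-3896869) and 886 bp from the start of Rasl11b (1.65 ± 0.28, chr5:74196212-74197072). All 10 calls held under each alternative tried, and with any 1 mouse left out the adjusted p was at most 0.00651.

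**Figure D4:**
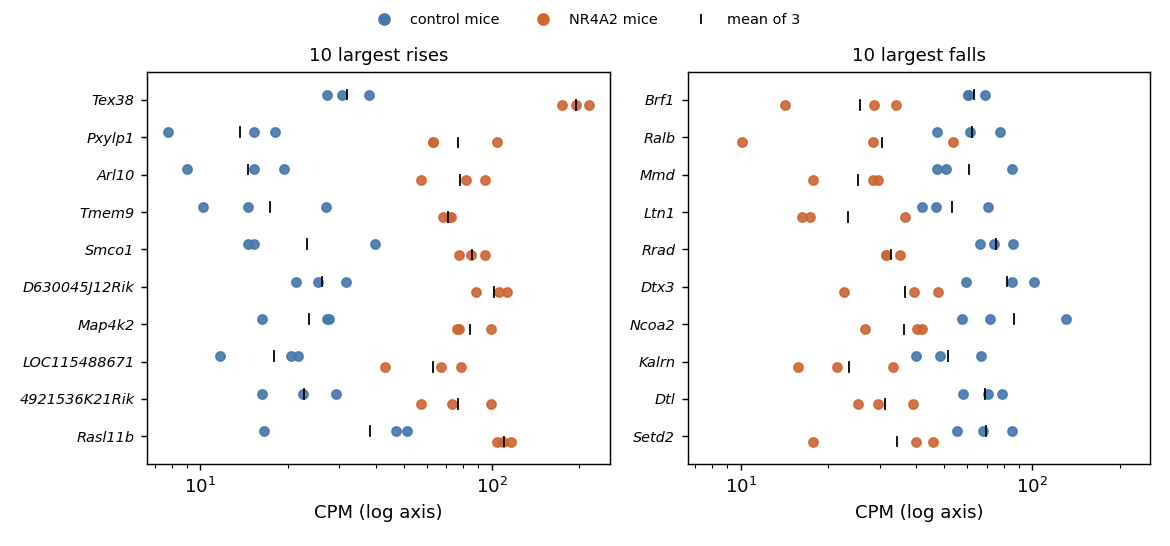
CPM (log axis) of each mouse at the 10 members with the largest rises (left) and the 10 with the largest falls (right) among members with at least median signal; bars mark means of 3. Control and NR4A2 mice are apart at all 10 rises, and overlap at Ralb among the falls.

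The 10 largest falls were smaller, from 51.7 to 86.6 CPM in controls down to 23.4 to 36.6 CPM in NR4A2 hearts. Brf1, a subunit of the RNA polymerase III initiation factor, gave 60.5, 60.3 and 68.8 CPM in controls and 28.6, 14.2 and 34.1 CPM in NR4A2 hearts (chr12:113000235-113000625), a log2 fold change of -1.35 ± 0.32 (SE; limma adjusted p = 0.000861). Rrad, a small GTPase that restrains L-type calcium channels, gave 86.1, 66.2 and 74.2 CPM and then 35.3, 31.5 and 31.5 CPM (chr8:104630851-104631349; -1.17 ± 0.28). Dtx3, a ubiquitin ligase of the Deltex family, fell from 85.0, 59.4 and 101 CPM to 47.7, 39.4 and 22.7 CPM (chr10:127194967-127195834; -1.17 ± 0.28). Dtl, a substrate receptor for the CUL4 ubiquitin ligase, fell from 70.7, 78.8 and 57.9 CPM to 29.6, 25.2 and 39.1 CPM 99 bp from its start (chr1:191575643-191576069; -1.13 ± 0.29). These 4 regions did not overlap between genotypes and passed the test with any 1 mouse left out.

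The other 6 large falls lost the call when 1 or more of the mice were left out. Ralb, a small GTPase, gave 47.1, 61.3 and 77.8 CPM in controls and 53.5, 28.4 and 10.1 CPM in NR4A2 hearts (chr1:119504353-119504859; -1.25 ± 0.39), so the groups overlapped, and its adjusted p was 0.0689 without control mouse 3 and 0.226 without NR4A2 mouse 3. Mmd (-1.22 ± 0.32, chr11:90249344-90249729) lost its call without control mouse 3 (adjusted p = 0.0621). Ltn1, the ligase of ribosome quality control (-1.21 ± 0.35, chr16:87432324-87432711), lost it without control mouse 3 (0.0749) or NR4A2 mouse 1 (0.0551). Ncoa2, a nuclear receptor coactivator, gave 57.4, 72.0 and 130 CPM in controls and 42.0, 26.8 and 40.4 CPM in NR4A2 hearts (chr1:13372780-13373559; -1.17 ± 0.28), and its adjusted p was 0.0539 without control mouse 3, the highest of the controls. Kalrn, a guanine nucleotide exchange factor (-1.13 ± 0.34, chr16:34573388-34573976), lost its call without control mouse 3 (0.0951) or NR4A2 mouse 2 (0.0688). Setd2, a histone H3 lysine methyltransferase (-1.08 ± 0.30, chr9:110532270-110532755), lost it without NR4A2 mouse 3 (0.143), the lowest NR4A2 heart at 17.7 CPM. With unscaled reads none of the 10 passed the test, with adjusted p from 0.059 to 0.182.

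The members with the most control signal per kilobase were Ctnnb1, Kmt5b, Lrp6, H4c4 and Polr2a, at 403 to 507 CPM per kilobase. Lrp6, a Wnt co-receptor, fell from 297, 238 and 409 CPM to 233, 118 and 185 CPM (chr6:134566671-134567415; -0.83 ± 0.20, limma adjusted p = 0.00341). With unscaled reads the calls of Lrp6 (adjusted p = 0.283), Kmt5b (0.716) and Ctnnb1 (0.714) were lost. Kmt5b, a histone H4 methyltransferase, fell from 661, 595 and 858 CPM to 545, 416 and 511 CPM (chr19:3767543-3769106; -0.51 ± 0.15), a call lost without control mouse 3 (adjusted p = 0.0806) or NR4A2 mouse 2 (0.0925). Ctnnb1, which encodes the Wnt effector β-catenin, had 346, 280 and 324 CPM in controls and 285, 208 and 188 CPM in NR4A2 hearts (chr9:120933203-120933827; -0.50 ± 0.16). The groups overlapped there, and the call was lost without control mouse 1 (0.114), NR4A2 mouse 2 (0.0771) or NR4A2 mouse 3 (0.193). Polr2a, the largest subunit of RNA polymerase II, had 655, 584 and 567 CPM in controls and 602, 619 and 569 CPM in NR4A2 hearts (chr11:69758150-69759643; -0.01 ± 0.15, adjusted p = 0.975). H4c4, a histone H4 gene with near-identical copies among which reads may be split, had a log2 fold change of 0.15 ± 0.16 (adjusted p = 0.583). Strong signal at gene starts was present in control hearts that lack the Nr4a2 knock-in.

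Promoter windows under members were of the CpG-rich kind, and the NBRE was rarer there than in other promoters. Of 21006 RefSeq promoter windows of 300 bases at protein-coding genes, 5309 overlapped a member by at least 150 bases. Those 5309 lay over 4414 of the 7968 members, and sequence outside the windows was not read. An NBRE stood in 51 of the 5309 windows (0.96%), in 1.44% of windows without a member and in 1.32% of all windows. The ETS core was in 25.01% of windows under members and 7.17% of the others, the NRF1 core in 19.5% and 5.01%, the GC box (GGGCGG) in 73.4% and 37.6%, the YY1 core (AAGATGGC) in 6.65% and 1.87%, and the CRE in 4.43% and 1.52%. The TATA box (TATAAA) was less frequent under members, at 5.59% against 14.9%, and the CCAAT box of NF-Y was at 37.8% against 38.3%. Over all windows these shares were 11.7% for ETS, 8.66% for NRF1, 46.6% for the GC box, 3.08% for YY1, 2.25% for the CRE, 12.5% for TATA and 38.2% for CCAAT. Matches were counted on both strands and are descriptions of letters, not bound sites. Median G+C content was 63.3% under members and 53.7% elsewhere, with a median of 25 and 8 CpG dinucleotides.

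Within members, the size of the change went with CpG content and with the NBRE. Of 281 windows with 0 to 9 CpGs under a member, 15 (5.34%) lay under a riser and 8 (2.85%) under a faller. Of 1727 windows with 30 or more CpGs, 4 (0.232%) lay under a riser and 120 (6.95%) under a faller. The median log2 fold change went from -0.04 through -0.14 (10 to 19 CpGs) and -0.18 (20 to 29) to -0.27. Median control signal also went up across these classes, from 52.7 to 85.3 CPM. Windows can share a region, and the 51 windows with an NBRE lay under 40 distinct members. These 40 had a median log2 fold change of 0.12 (interquartile range -0.10 to 0.28), and 27 of them were above 0. The 4374 members with windows that all lacked it had a median of -0.19, and 24.1% were above 0. With an NBRE the median signal was 77.4, 75.9 and 70.6 CPM in controls and 83.1, 76.4 and 87.03 CPM in NR4A2 hearts, so the genotypes overlapped at this level. In each CpG class the median with an NBRE was the higher: 0.25 against -0.06 (9 members with an NBRE), 0.03 against -0.14 (14), 0.15 against -0.19 (14) and 0.00 against -0.27 (8), where a member with windows of several classes counts in each. Only the window of Tex38 had an NBRE and a changed region, and none of the 227 windows under fallers held one. An NBRE stood in 0.96% of all windows under members and in 0.99% of those under members that did not pass. At such shares few or none would be found in 227 or in 32 windows. The share of windows with a CCAAT box was 25.1% under fallers, 38.3% under members that did not pass and 46.9% under risers. Among windows with 30 or more CpGs the CCAAT box was in 17.5% under fallers and 28.1% under members that did not pass.

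Most genes of basic cell functions had a member, against 37.2% of all 21900 protein-coding genes. Most of their regions did not pass the test, as held for 94.1% of all members, and counts of calls below stand beside the 2.03% of members that rose and 3.84% that fell. Among cytosolic ribosomal protein genes 73 of 74 had a member, and 2 rose and 2 fell of their 95 regions (median log2 fold change -0.14). Rps27a, which encodes a ubiquitin-ribosomal protein fusion, fell from 156, 137 and 136 CPM to 91.7, 86.7 and 87.0 CPM (-0.68 ± 0.20, limma), with an adjusted p of 0.0526 without control mouse 1. Rpl3 rose from 53.2 ± 11 to 101 ± 20.4 CPM (SD, n = 3), with an adjusted p of 0.0672 without NR4A2 mouse 3. Rpl14 (fell) and Rpl17 (rose) lost their calls when any of 4 and any of 5 mice was left out. Among mitochondrial ribosomal protein genes 62 of 76 had a member, none rose and 4 fell of 69 regions (median -0.17): Mrps14, Mrpl49, Mrps7 and Mrpl53. At the start of Mrps14 the values were 53.3, 50.6 and 48.9 CPM in controls and 21.0, 18.9 and 30.3 CPM in NR4A2 hearts (-1.12 ± 0.33), with an adjusted p of 0.0505 without control mouse 1. Mrpl49, Mrps7 and Mrpl53 also lost their calls without at least 2 of the mice, with adjusted p up to 0.214.

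Respiratory chain genes with members numbered 72 of 79, and of their 100 regions 2 rose and 1 fell (median -0.05). Both rises lay near the far end, inside the gene. Sdhd, a subunit of complex II, went from 30.7, 12.7 and 9.05 CPM to 73.5, 44.1 and 36.6 CPM, 628 bp from its far end (chr9:50596968-50597404; 1.62 ± 0.39, limma adjusted p = 0.00107). Ndufs4, of complex I, rose 738 bp from its far end from 7.97 ± 3.00 to 25.1 ± 4.30 CPM (SD, n = 3), a call lost without control mouse 2 (0.0875), NR4A2 mouse 1 (0.0752) or NR4A2 mouse 3 (0.0961). Atp5h, of the ATP synthase, fell near the starts of Atp5h and Kctd2 from 144, 144 and 148 CPM to 89.8, 89.8 and 103 CPM (-0.62 ± 0.19), with an adjusted p of 0.0577 without NR4A2 mouse 1. None of 31 proteasome regions (30 of 33 genes, median -0.16) and none of 43 regions of RNA polymerase II and Mediator genes (40 of 47 genes, median -0.16) passed the test. Ubiquitin genes (6 of 8 with a member) had 1 fall, Rps27a given above, among 9 regions (median -0.26). Translation factor genes (42 of 45 with a member) had 1 rise of 53 regions, Gspt1, a translation release factor described above, and 3 falls, Eif5a, Eif2s1 and Eif4g1. Splicing factor genes (38 of 43) had 1 rise, Snrpa, and 3 falls, Srsf1, Srsf6 and Srsf10, of 52 regions. Each of these falls and Snrpa lost its call without at least 2 of the mice, with adjusted p up to 0.33.

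Among members, those at glucose metabolism genes stood on the side of rises. Of 40 regions at 26 of the 39 genes listed, 6 (15%) rose and none fell, with a median log2 fold change of 0.07. Over all members 2.03% rose and 3.84% fell, with a median of -0.18. Over all regions 14.7% rose and 3.17% fell, so the list's share of rises was near that of all regions. The list was written with earlier results of these data known. Gapdh, the glycolytic dehydrogenase, gave 171, 205 and 170 CPM in controls and 303, 325 and 359 CPM in NR4A2 hearts in a region at the ends of Gapdh and Iffo1 (chr6:125160530-125162418; 0.85 ± 0.16, limma adjusted p = 3.47e-05). Pfkm, the muscle phosphofructokinase, had a region near the far ends of Pfkm and Asb8 with 73.8, 65.2 and 65.2 CPM in controls and 120, 145 and 114 CPM in NR4A2 hearts (chr15:98133124-98134541; 0.88 ± 0.21, adjusted p = 0.00111). Control and NR4A2 mice were apart in both regions, and both calls held with any 1 mouse left out but not with unscaled reads (adjusted p = 0.316 and 0.311). Tpi1, triosephosphate isomerase, rose near the far ends of Tpi1 and Spsb2 from 39.5 ± 5.97 to 73.5 ± 11.5 CPM (SD, n = 3; chr6:124809943-124810814), with an adjusted p of 0.106 without NR4A2 mouse 3. The other 3 are named because they complete the count and were chosen after their values were seen. Slc2a4, the insulin-regulated glucose transporter, rose from 126 ± 11.3 to 191 ± 17.4 CPM, a call lost without NR4A2 mouse 1 (0.0588) or NR4A2 mouse 2 (0.0522). Pygm, the muscle glycogen phosphorylase, rose from 104 ± 18.2 to 161 ± 17.8 CPM, a call lost without control mouse 2 (0.105) or NR4A2 mouse 3 (0.0965). Mpc2, of the mitochondrial pyruvate carrier, rose from 100.1 ± 16.5 to 153 ± 8.35 CPM near the starts of Mpc2 and Dcaf6, a call lost without control mouse 3 (0.057) or NR4A2 mouse 3 (0.0804).

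Fatty acid genes (37 of 41 with a member) had 1 rise and 1 fall of 46 regions. Ucp3, a mitochondrial carrier of muscle, rose 313 bp from its far end from 43.0, 34.1 and 21.7 CPM to 64.0, 69.4 and 102 CPM (chr7:100486745-100487670; 1.25 ± 0.29, limma adjusted p = 0.000584). Plin4, a lipid droplet protein, fell at its start from 277, 191 and 226 CPM to 176, 167 and 93.3 CPM (-0.70 ± 0.19), a call lost without control mouse 1 (0.0538) or NR4A2 mouse 3 (0.168).

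Genes of the contractile apparatus moved in both directions. Of 48 sarcomere and Z-disc regions, at 25 of the 40 genes, 5 (10.4%) rose and 3 (6.25%) fell, with a median of -0.11. Over all members 2.03% rose and 3.84% fell, and over all regions 14.7% and 3.17%. Smyd1, a lysine methyltransferase that muscle needs to build sarcomeres, rose at its start from 40.0, 30.2 and 28.96 CPM to 73.5, 77.2 and 78.2 CPM (chr6:71262031-71262517; 1.20 ± 0.28, limma adjusted p = 0.000675). A weak region near its far end also rose, from 4.51 ± 2.25 to 18.99 ± 6.66 CPM (SD, n = 3), but lost its call without control mouse 2 (0.131), NR4A2 mouse 1 (0.146) or NR4A2 mouse 2 (0.181). Ldb3, a Z-disc protein, rose in a region near the ends of Ldb3 and Opn4, from 38.9, 29.2 and 36.2 CPM to 100.3, 61.5 and 98.4 CPM (chr14:34591238-34592622; 1.27 ± 0.27, adjusted p = 0.000219). Another Ldb3 region, 223 bp from its far end, rose from 39.0 ± 7.16 to 68.1 ± 16.7 CPM (SD, n = 3). That call was lost without control mouse 1 (0.168), NR4A2 mouse 2 (0.24) or NR4A2 mouse 3 (0.093). Actc1, cardiac α-actin, rose 917 bp from its start from 112, 89.5 and 79.6 CPM to 178, 170 and 148 CPM (chr2:114053792-114055357; 0.82 ± 0.19, adjusted p = 0.000834). Tnnc1, cardiac troponin C, fell at its start from 63.5, 73.0 and 85.1 CPM to 41.1, 41.0 and 25.2 CPM (chr14:31208089-31208615; -1.05 ± 0.28), with an adjusted p of 0.0531 without NR4A2 mouse 3. Myl3, the ventricular essential light chain, and Synpo2l, a Z-disc protein, fell at their far ends, and both calls were lost without control mouse 1 (0.103 and 0.0835) or NR4A2 mouse 3 (0.198 and 0.368), that of Myl3 also without control mouse 2 (0.0525).

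Calcium handling genes had 1 rise and 5 falls (21.7%) among 23 regions at 16 of 26 genes, with a median of -0.17, beside 2.03% and 3.84% of all members. Over all regions 14.7% rose and 3.17% fell. This list too was written with earlier results of these data known. Slc8a1, the sodium-calcium exchanger of cardiomyocytes, rose at its start from 107, 96.4 and 68.8 CPM to 149, 162 and 161 CPM (chr17:81736807-81738569; 0.82 ± 0.20, limma adjusted p = 0.00116). The falls were at Rrad, described above, at the calmodulin genes Calm3 and Calm2, at Camk2d, the main cardiac calmodulin kinase, and at Atp2b1, a plasma membrane calcium pump. Calm3 fell from 206, 234 and 266 CPM to 175, 136 and 149 CPM (chr7:16923595-16924668; -0.62 ± 0.17, adjusted p = 0.00579), and the genotypes did not overlap. Calm2 fell from 541 ± 97.7 to 373 ± 10.4 CPM (SD, n = 3), with an adjusted p of 0.0753 without control mouse 3. Camk2d and Atp2b1 lost their calls without any of 4 and any of 3 mice, with adjusted p up to 0.157 and 0.251.

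**Figure D5:**
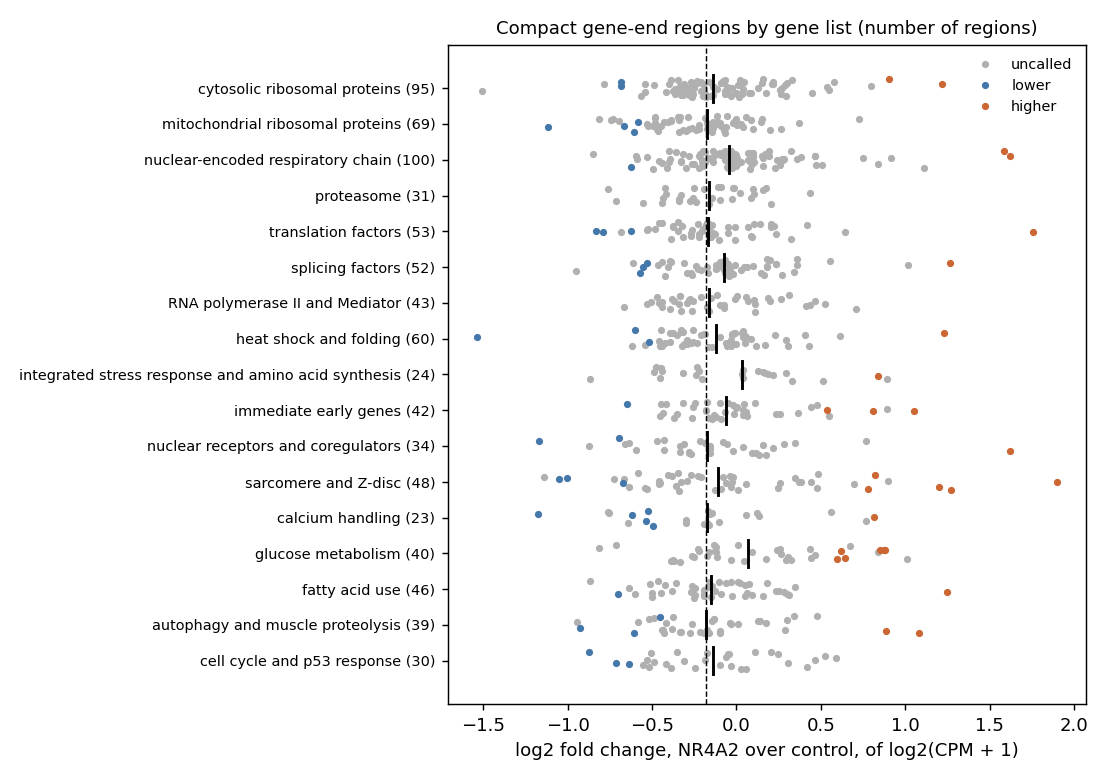
Log2 fold change (NR4A2 over control, horizontal axis) of every member at genes of the 17 reported lists with at least 20 regions. Points are regions, black bars are list medians and the dashed line is the median of all members, -0.18; glucose metabolism has 6 rises and no fall.

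A member lay at 26 of 49 nuclear receptor and coregulator genes, against 37.2% of all protein-coding genes, and 1 rose and 2 fell of 34 regions. Ncoa6, a nuclear receptor coactivator, rose 888 bp from its start from 25.6, 18.5 and 10.9 CPM to 47.7, 59.9 and 59.3 CPM (chr2:155472609-155473023; 1.62 ± 0.36, limma adjusted p = 0.000311). Rxra, which encodes the retinoid X receptor that partners NR4A1 and NR4A2, fell from 111, 97.3 and 150 CPM to 77.3, 66.2 and 73.2 CPM (chr2:27676676-27677747; -0.70 ± 0.21), with an adjusted p of 0.125 without control mouse 3. The other fall was at Ncoa2, given above. Of the Nr4a genes, Nr4a2 and Nr4a3 had 1 member each and Nr4a1 none. The region on the Nr4a2 start gave 16.4, 36.0 and 36.2 CPM in controls and 13.4, 11.03 and 12.6 CPM in NR4A2 hearts (chr2:57123820-57124137). All NR4A2 hearts were below all controls, yet the log2 fold change of -1.12 ± 0.45 did not pass the test (adjusted p = 0.0736). Nr4a3 gave 33.8, 44.8 and 63.4 CPM and 51.6, 26.8 and 40.4 CPM (chr4:48044597-48045187; -0.25 ± 0.31, adjusted p = 0.641). These values are ChIP-seq signal at the endogenous genes, not expression of the transgene.

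Stress, early response and turnover genes gave scattered calls. Among immediate early genes (21 of 31), 3 of 42 regions rose, 2 at Ccn1 and 1 at Jun, and 1 fell, at Junb. Ccn1, a secreted matrix protein, rose 75 bp from its far end from 98.4, 53.5 and 36.2 CPM to 140, 125 and 101 CPM (chr3:145645619-145646896; 1.06 ± 0.24, limma adjusted p = 0.00104), a call lost with unscaled reads (0.156). The other Ccn1 region, Jun and Junb lost their calls without at least 3 of the mice. In the integrated stress response list (16 of 29) 1 of 24 regions rose, near the far ends of Ddit3, a transcription factor of endoplasmic reticulum stress, and Mars1, and it lost its call without control mouse 3 (0.239), NR4A2 mouse 2 (0.248) or NR4A2 mouse 3 (0.173). Heat shock and folding genes (47 of 52) had 1 rise, Hspb7, and 3 falls, Hspb1, Hspa9 and Dnajb4, of 60 regions. Hspb7, a small heat shock protein of heart muscle, went from 17.4, 17.5 and 25.3 CPM to 38.2, 47.3 and 60.5 CPM (chr4:141419870-141420585; 1.23 ± 0.35), with an adjusted p of 0.0822 without NR4A2 mouse 3, and the 3 falls each lost the call without at least 2 of the mice. Autophagy genes (31 of 34) had 2 rises and 3 falls of 39 regions. Map1lc3a, which encodes LC3A of the autophagosome, rose from 53.3, 81.8 and 59.7 CPM to 137, 102 and 120 CPM (chr2:155278323-155279501; 0.89 ± 0.22, adjusted p = 0.00148). Ulk1, the kinase that starts autophagy, fell at its start from 99.4, 77.9 and 95.9 CPM to 41.1, 53.6 and 47.9 CPM (chr5:110809825-110810252; -0.92 ± 0.25, adjusted p = 0.00336). Both held with any 1 mouse left out, whereas Gabarapl1 (rose), Pink1 and Ulk2 (fell) lost their calls without at least 3 of the mice. Cell cycle genes (25 of 46) had 3 falls of 30 regions, Brca1, Ccnd2 and Rbl1, and none of these 3 held with every mouse left out in turn.

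Members at markers of the cell types of the ventricle were counted too, although ChIP-seq signal at a gene is no measure of its RNA. A member lay at 3 of 8 cardiomyocyte marker genes, 3 of 7 fibroblast, 4 of 8 endothelial, 2 of 6 smooth muscle and pericyte and 1 of 7 immune marker genes, beside 37.2% of all protein-coding genes, while Myh6, Myl2, Tnnt2, Pln and Ryr2 had none. Of their 15 regions, that of Actc1 rose and that of the endothelial receptor gene Tie1 fell. Tie1 gave 45.1, 46.7 and 63.4 CPM in controls and 26.7, 20.5 and 35.3 CPM in NR4A2 hearts, and its call was lost without any of 5 mice. Log2 fold changes ran from -0.90 at Tie1 to 0.10 at Cdh5 for the 5 regions of endothelial markers (median -0.42). For the fibroblast markers they ran from -0.50 at Col1a1 to 0.20 at Col3a1 (median -0.01). The 4 cardiomyocyte marker regions ran from -0.13 to 0.82 at Actc1, with a median of -0.04. Pdgfrb, a growth factor receptor of pericytes, gave 17.4, 28.2 and 16.3 CPM in controls and 30.6, 47.3 and 32.8 CPM in NR4A2 hearts. All NR4A2 hearts were above all controls at Pdgfrb, with a log2 fold change of 0.82 ± 0.38 that did not pass the test (limma adjusted p = 0.128). The other smooth muscle and pericyte region had a log2 fold change of 0.004. Cd79a of B cells had a log2 fold change of -0.05 ± 0.23 (0.916). A shift in the mix of cells was not tested. Members were not spread evenly over genes: they lay at 8144 genes, 1185 of which had 2 or more, and Tob2 had the most, with 6. None of the Tob2 regions passed the test, and the region on its start gave 357, 341 and 293 CPM in controls and 257, 240 and 267 CPM in NR4A2 hearts (chr15:81857775-81858946; adjusted p = 0.0953).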

How the data were processed

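NR4A2 ChIP-seq values of 6 mice (3 per genotype, 1 library each) were used. Per the submitters' processing notes, reads were aligned with BWA to GRCm38 (mm10). How peaks were called, merged and counted, and whether reads were first thinned to the fly spike-in, are points not given in the sources used here. CPM are the values that the authors deposited for each mouse. All of them were whole multiples of what 1 read is worth (100% within 0.001 read), so reads were recovered: 549700 to 1035856 per library in regions, a median of 32 to 58 per member. The authors also deposited a log2 fold change and a log2 mean CPM per region with a p-value, an FDR and a call. No value column was left unmatched (0).

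Gene spans and promoter sequences are from RefSeq (GRCm38.p6). A region is at a gene end when the end lies in it or within 1 kb of it. The test was limma 3.58.1 (R 4.3.3, trend and robust) of genotype alone on log2(CPM + 1), adjusted over all 16884 regions, and a fold change on this scale understates the change of weak regions. Alternatives were pseudocounts of 0.5 and 5, a minimum of the median mean CPM (37.4), edgeR 4.0.16 and DESeq2 1.42.0 on recovered reads, no scaling, median centring, a replicate block, each mouse left out, a gene end inside the region and lengths under 1000 bp. On simulated reads for this comparison over 16884 regions, limma recovered 40% of 100 regions changed by 1 (log2) and 91% of 100 changed by 2, with 5 false calls. No other regions were changed, and rises and falls were equal in number. False calls under the mostly upward change of these data were therefore not simulated. Members and the 25 gene lists (852 entries, all matched) were chosen with earlier results of these data known. The result of 1 list is not reported here.

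Named regions are the 10 largest rises and falls with mean CPM at or above 37.4, the 5 with most control CPM per kilobase, up to 3 called regions per list (the strongest where none was called) and the Nr4a genes. Intervals and floors cover counting error only: 3 reads are worth 2.86 to 5.43 CPM, and 10 library values of members were 0 reads.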

Additional observations from a re-analysis of the deposited data

How the results depend on the processing

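The number of rising members, 162, was 64 with the minimum on mean CPM (fewer regions tested), 45 with recovered reads left unscaled, 52 when a gene end had to lie inside the region, and 85 to 147 with 1 mouse left out. The number of falling members, 306, was 141 with the minimum, 141 with DESeq2, 2 unscaled, 652 after median centring and 157 to 270 with 1 mouse left out. The median log2 fold change of members, -0.18, was -0.29 after centring and kept its sign under every setting run. The causes of the unscaled, DESeq2 and centred counts were not tested. The counts moved by less than 1.5 times with the other pseudocounts (160 and 171 rises), with edgeR (171 rises, 316 falls) and with lengths under 1000 bp (132 and 240). Replicate numbers do not pair the mice: deviations of same-numbered libraries correlated at -0.07, 0.06 and 0.03, and a replicate block gave 170 rises and 324 falls. Over 74 named regions and 1023 values under alternatives, 839 kept their direction and side of the threshold, 182 lost the call, 2 gained one and none reversed. Depth limits the weak members most, since 1 read is worth 0.955 to 1.81 CPM.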
